A study of Mus musculus with 18 samples.

Results

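The genes described here are 7 small nucleolar RNA (snoRNA) host genes of the mouse, Gas5, Snhg1, Snhg3, Snhg5, Snhg6, Snhg8 and Snhg12. They were taken by name, and all 7 were found among the 50600 gene entries of the count tables and passed the filter on low counts. Poly-A-selected, strand-specific RNA sequencing was done on C2C12 cells, a mouse muscle myoblast line that fuses into myotubes when serum is withdrawn. The 18 libraries make 6 groups of 3, from 3 stable lines each sampled while growing (growth medium, GM) and 2 days after the change to differentiation medium (DM2). The control line had received the control plasmid, the ERK3-depleted line the CRISPR plasmid px459 with a guide to Mapk6, and the MK5-depleted line px459 with a guide to Mk5 (Mapkapk5). Mapk6 encodes ERK3, an atypical mitogen-activated protein kinase, and Mapkapk5 encodes MK5, a protein kinase that ERK3 binds and activates. The labels do not say whether a line is a clone or a pool, or whether the 3 libraries of a group came from separate cultures, so the p-values measure only the spread between these libraries.

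snoRNAs guide the chemical modification of ribosomal RNA. Box C/D snoRNAs direct methylation of the ribose and box H/ACA snoRNAs direct the conversion of uridine to pseudouridine, and a few of them act in cleavage of the ribosomal RNA precursor. In mammals most are not made from genes of their own: they lie in introns of host genes and are trimmed out of the excised intron after splicing. In the genes described here the spliced exons form a transcript with little or no protein-coding potential. Several such hosts start with a run of pyrimidines, the 5′ terminal oligopyrimidine (TOP) that ribosomal protein mRNAs also carry, and their spliced RNA is degraded by nonsense-mediated decay while it is translated. Gas5 was named for its accumulation in growth-arrested mouse fibroblasts.

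In the GENCODE M21 annotation of the GRCm38 genome, the 7 genes held 29 snoRNA entries at 27 positions, and every entry lay in an intron of the drawn transcript. Gas5, on chromosome 1 at 161034422 to 161038539 on the plus strand, held 10 entries at 9 positions in a transcript of 12 exons that is only 502 bases long after splicing. Snhg1, on chromosome 19 at 8723475 to 8726443 on the plus strand, held 8 entries, and its 10 exons join to 605 bases. Both genes are therefore mostly intron, with a snoRNA in nearly every one. Snhg5, on chromosome 9 at 88521050 to 88522929 on the minus strand, holds the pair Snord50a and Snord50b. Snhg6, on chromosome 1 at 9941959 to 9944118 on the minus strand, holds Snord87. These 4 genes host box C/D snoRNAs. The hosts of box H/ACA snoRNAs are Snhg3, on chromosome 4 at 132348014 to 132353686 on the minus strand with Snora73a and Snora73b, and Snhg8, on chromosome 3 at 123507552 to 123508404 on the minus strand with Snora24. Snhg12, on chromosome 4 at 132308623 to 132311024 on the plus strand, is a host of both kinds, with Snora16a, Snora44, Snora61 and the box C/D RNA Snord99. Its spliced transcript of 5 exons is 606 bases long.

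**Figure D1:**
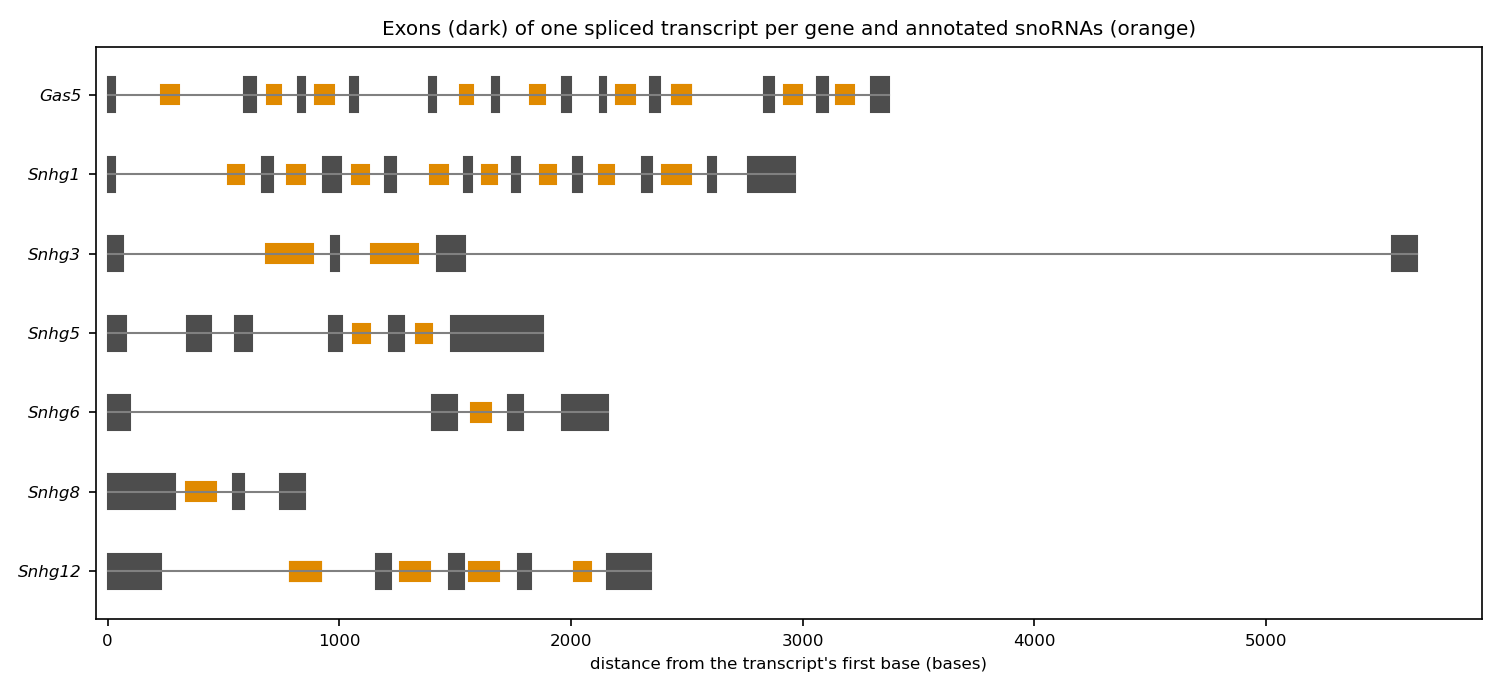
Exons (boxes), introns (lines) and annotated snoRNAs (coloured marks) of 1 transcript of each of the 7 host genes, drawn to scale against distance from the transcript's start in bases. All 29 snoRNA entries fall between exons.

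The guide RNAs inside the introns are shown for 3 box C/D RNAs and 1 box H/ACA RNA, since they are what these genes are known for. Capitals mark box C (TGATGA) and box D (CTGA), or the ACA that stands 3 bases from the 3′ end of a box H/ACA RNA. They are in GENCODE M21 as Snord47 of Gas5 (chr1:161038082-161038158, plus strand), Snord50a of Snhg5 (chr9:88521529-88521600, minus strand), Snord87 of Snhg6 (chr1:9942463-9942549, minus strand) and Snora24 of Snhg8 (chr3:123507937-123508066, minus strand).
Snord47: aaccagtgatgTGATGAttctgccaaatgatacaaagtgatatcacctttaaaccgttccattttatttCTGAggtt
Snord50a: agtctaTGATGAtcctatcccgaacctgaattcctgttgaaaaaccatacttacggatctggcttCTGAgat
Snord87: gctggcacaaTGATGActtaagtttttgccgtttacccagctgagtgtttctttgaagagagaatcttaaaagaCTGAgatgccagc
Snora24: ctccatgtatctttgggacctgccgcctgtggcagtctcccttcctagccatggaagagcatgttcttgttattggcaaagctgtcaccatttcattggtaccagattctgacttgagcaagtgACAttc

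The start regions are shown as a description of the genes, and their part in the host levels was not tested. RefSeq (GRCm38.p6) gave a start for 6 of the 7 genes, all but Snhg6. Each sequence runs from 60 bases before the start to 30 bases after it, on the gene's own strand, and capitals mark TATA between 40 and 20 bases before the start and the longest run of C and T that touches the 5 bases on either side of the start.
Gas5 (chr1:161035106-161035195, plus): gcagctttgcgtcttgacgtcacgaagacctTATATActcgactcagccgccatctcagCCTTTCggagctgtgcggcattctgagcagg
Snhg1 (chr19:8723427-8723516, plus): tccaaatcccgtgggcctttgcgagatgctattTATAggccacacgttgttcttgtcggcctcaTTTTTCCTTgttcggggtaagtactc
Snhg5 (chr9:88522868-88522957, minus): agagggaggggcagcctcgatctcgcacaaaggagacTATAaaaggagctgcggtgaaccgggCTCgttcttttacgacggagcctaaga
Snhg3 (chr4:132353657-132353746, minus): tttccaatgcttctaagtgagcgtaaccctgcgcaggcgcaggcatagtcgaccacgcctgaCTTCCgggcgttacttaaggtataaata
Snhg8 (chr3:123508307-123508396, minus): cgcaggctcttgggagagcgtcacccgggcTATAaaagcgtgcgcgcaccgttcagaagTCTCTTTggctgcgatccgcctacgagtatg
Snhg12 (chr4:132308618-132308707, plus): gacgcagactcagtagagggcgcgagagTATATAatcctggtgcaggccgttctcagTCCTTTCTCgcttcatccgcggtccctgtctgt
The letters TATA, which read the same on both strands, stood in that stretch in 5 of the 6 genes, all but Snhg3, against 5.81% of the 32851 promoter windows in the RefSeq table. A run of at least 6 pyrimidines touching the 5 bases on either side of the start was found in 4 of the 6 genes, against 20.2% of all windows. These were Gas5, Snhg1, Snhg8 and Snhg12. In Snhg1 the run covered bases 5 to 13 of the transcript and did not include its first base. Both letters-only matches together were present in 1.2% of all windows. These matches describe the annotated start and were not tied to a measured transcription start in C2C12 cells.

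The libraries held 23587495 to 31209608 reads each, of which 17474562 to 23423050 were assigned to genes on the transcribed strand. In the check of the targeted genes, Mapk6 mRNA of the ERK3-depleted line was lower than control at DM2 (log2 fold change -0.86 ± 0.12 SE, adjusted p = 2.18e-05, edgeR quasi-likelihood test with Benjamini-Hochberg adjustment) and did not pass the test in GM (-0.15, adjusted p = 0.464). Mapkapk5 mRNA of the MK5-depleted line was -0.68 ± 0.26 relative to control at DM2 (edgeR adjusted p = 0.0443) and -0.55 in GM (adjusted p = 0.232). In the ERK3-depleted line Mapkapk5 was nearly as low, at -0.57 at DM2 (edgeR adjusted p = 0.0751) and -0.51 in GM (adjusted p = 0.275). Mapk6 of the MK5-depleted line was also lower than control at DM2 (-0.40, edgeR adjusted p = 0.0115), with 0.32 in GM (adjusted p = 0.105). In the control line Mapk6 rose from GM to DM2 (0.68, edgeR adjusted p = 0.000163). Neither mRNA was called between the depleted lines in either medium. A small deletion made by a guide need not lower an mRNA. All 8 myoblast and muscle markers were measured, and their summed level was 1161 to 1362 CPM (a counts-per-million scale that makes library sizes equal) in control GM, 3464 to 3699 CPM in control DM2, 3500.5 to 4039 CPM in ERK3-depleted DM2 and 3441 to 4544 CPM in MK5-depleted DM2. Of the 7 fibroblast markers 5 passed the filter on low counts, all but Lum and Col15a1, and their summed level was 94.6 to 126 CPM in control GM, 113 to 178 CPM in control DM2, 109.8 to 135 CPM in ERK3-depleted DM2 and 84.4 to 126 CPM in MK5-depleted DM2. Some DM2 libraries of the depleted lines stood apart in the share of reads assigned to no annotated exon, called reads outside genes here. This share can include reads in introns of genes. It was 5.55%, 7.73% and 3.79% in the ERK3-depleted line and 3.96%, 4.11% and 2.84% in the MK5-depleted line, against 2.40% to 3.22% in the other 12 libraries. The host, Snora73b and gene list comparisons that rest on these DM2 libraries are also given without the 4 highest. That leaves 1 DM2 library in each depleted line, so those values rest on 1 library.

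Per unit of transcript length, Gas5 was the most abundant host and Snhg3 the least abundant in all 6 groups. In control GM the deposited TPM (a transcripts-per-million value, corrected for transcript length) of Gas5 was 138 ± 5.57 (SD, n = 3), followed by Snhg8 at 102 ± 5.14, Snhg1 at 82.7 ± 5.35, Snhg5 at 61.0 ± 8.90, Snhg12 at 59.8 ± 5.47, Snhg6 at 45.0 ± 1.89 and Snhg3 at 33.7 ± 9.92. The libraries of Snhg5 and Snhg12 overlapped there, and the other neighbours in this order did not. At DM2 the control order was Gas5, Snhg1, Snhg8, Snhg12, Snhg5, Snhg6 and Snhg3, with overlap between Snhg1 and Snhg8, between Snhg8 and Snhg12, and between Snhg5 and Snhg6. In the depleted lines at DM2, Snhg12 took the place of Snhg1 above it in the order, with 112 ± 8.06 TPM in the ERK3-depleted and 107 ± 3.83 TPM in the MK5-depleted line, although its libraries overlapped those of Snhg1 in both. Snhg3 remained last, at 51.9 ± 3.49 TPM in the ERK3-depleted and 43.1 ± 9.13 TPM in the MK5-depleted line at DM2, against 21.2 ± 1.92 TPM in control DM2.

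**Figure D2:**
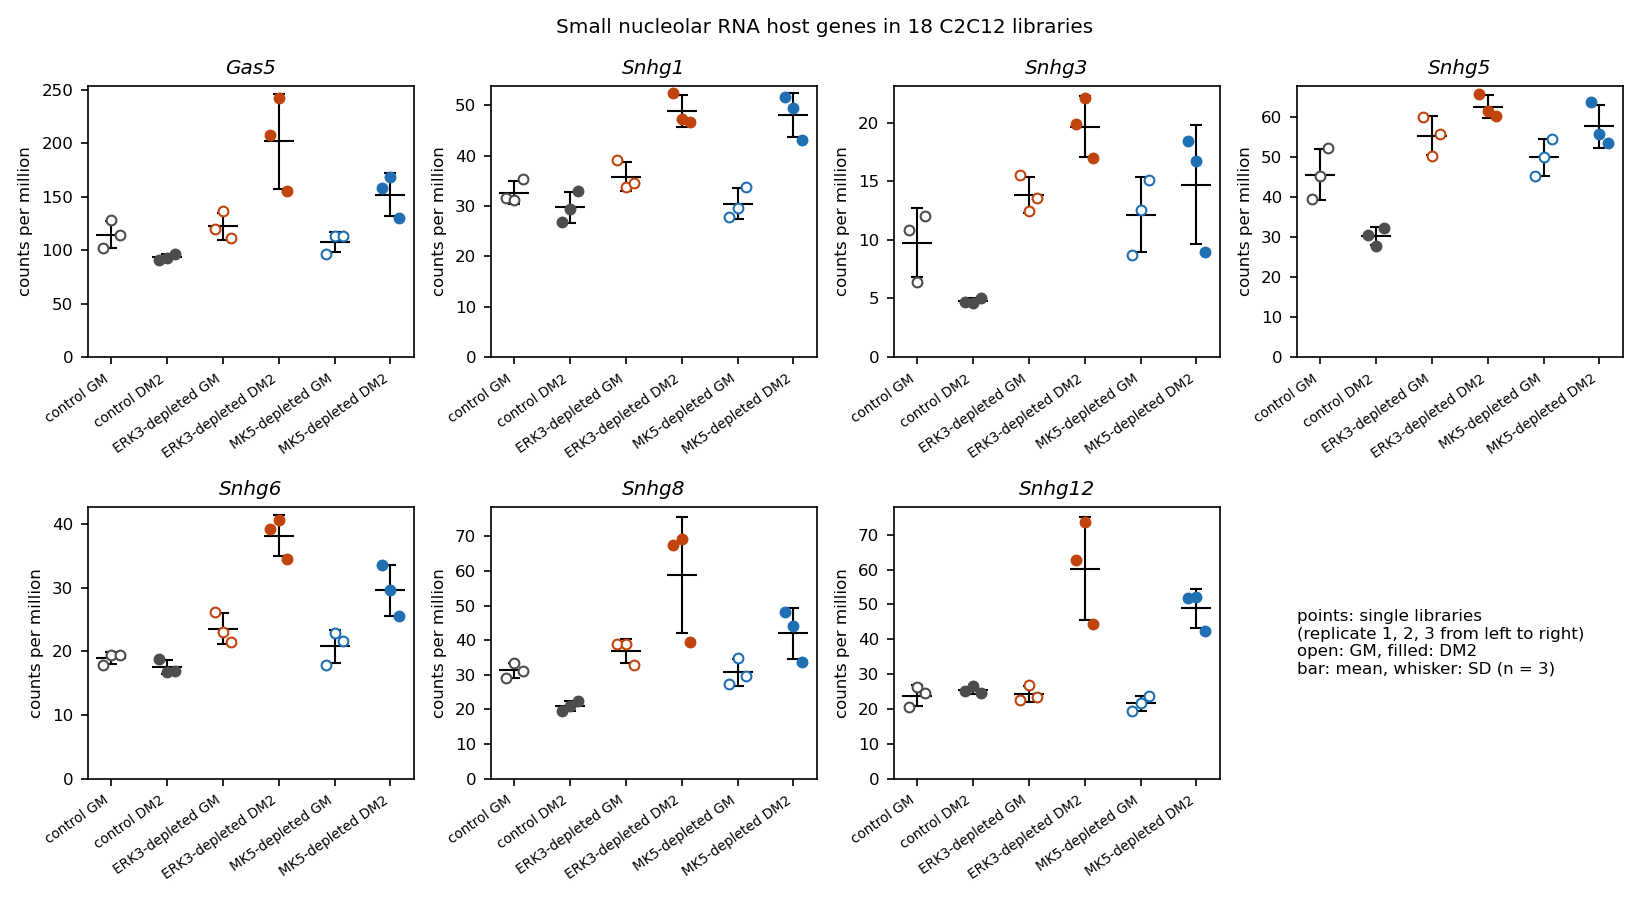
Level of each host gene in CPM, 1 panel per gene, with a point for each library (open for GM, filled for DM2), a bar for the group mean and a whisker for 1 SD (n = 3), for the 3 lines in GM and at DM2. The 6 libraries of the depleted lines at DM2 sit above the 3 control DM2 libraries in every panel.

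In the control line, differentiation lowered 3 of the 7 hosts, Snhg3, Snhg5 and Snhg8, and raised none. Across all 13939 genes tested 45.6% changed, 23.1% in the downward direction, so 3 of 7 called is near the background share for either direction. The H/ACA host Snhg3 was at 10.8, 6.41 and 12 CPM in GM and at 4.74, 4.59 and 5.07 CPM at DM2. All 3 DM2 libraries lay below all 3 GM libraries, and the gene fell by 1.02 ± 0.27 (SE) on the log2 scale, 2.02-fold (edgeR adjusted p = 0.00474). Snhg8, the host of Snora24, was at 29.2, 33.5 and 31.2 CPM in GM and at 19.7, 21.0 and 22.6 CPM at DM2. It too showed no overlap, and fell by 0.57 ± 0.17 (edgeR adjusted p = 0.0117). The C/D host Snhg5 was at 39.3, 45.2 and 52.1 CPM in GM and at 30.5, 27.7 and 32.1 CPM at DM2, a fall of 0.60 ± 0.11 with no overlap (edgeR adjusted p = 0.000194). In bulk libraries such as these, fewer cells of a type and less RNA per cell cannot be told apart.

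The other 4 hosts did not pass the test in the control line. Gas5 was at 102, 128 and 114 CPM in GM and at 91.1, 92.2 and 96.4 CPM at DM2. Its libraries did not overlap between the media, and its log2 fold change was -0.30 ± 0.14 (edgeR adjusted p = 0.0848). Without the 4 DM2 libraries with the most reads outside genes, which belong to the other lines and enter only the shared estimate of spread, Gas5 passed at an adjusted p of 0.0176 (-0.28). Snhg1, whose introns carry C/D snoRNAs, was at 31.5, 31.1 and 35.4 CPM in GM and at 26.8, 29.4 and 33 CPM at DM2 (-0.14). Snhg6 was at 17.8, 19.5 and 19.5 CPM in GM and at 18.7, 16.8 and 16.9 CPM at DM2 (-0.11). Snhg12, the mixed host, was at 20.5, 26.3 and 24.6 CPM in GM and at 25.2, 26.5 and 24.5 CPM at DM2 (0.09, edgeR adjusted p = 0.639). The groups overlapped for these last 3 genes. In all, 4 of the 7 hosts were lower at DM2 without overlap, against 32.1% of all genes. The median log2 fold change was -0.30 over the hosts and -0.02 over all genes. With offsets that correct the counts of each library for gene length and GC content, Snhg8 no longer passed (-0.26, edgeR adjusted p = 0.0963) and Snhg6 passed in the upward direction (0.24, adjusted p = 0.0274). The length and GC offsets together with the replicate number as a block also called Snhg12 higher (0.29, edgeR adjusted p = 0.0490). Snhg3 missed the threshold on log2(TPM + 1) without a filter on low values (-0.60, limma adjusted p = 0.0689). The direction for Snhg1 also turned under those offsets and on the unscaled TPM values, to 0.02 and 0.04.

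In growth medium no host passed the test against control in either depleted line. For the ERK3-depleted line edgeR called 0 of the 7 hosts, against 6.79% of all genes. An unadjusted edgeR p under 0.05 was found for 2 hosts and for 3350 of all 13939 genes. DESeq2 and limma on the TPM values called 0 hosts. Snhg3 was at 15.5, 12.4 and 13.5 CPM in that line, above all 3 control libraries (0.51, edgeR adjusted p = 0.221). Snhg6 was at 26.2, 23.0 and 21.5 CPM, also without overlap (0.32, edgeR adjusted p = 0.106). The share of all genes that lay above control without overlap was 15.8%. Gas5 stood at 120.1, 136 and 111 CPM, within reach of its control libraries (0.10). Without a filter on counts Snhg3 was called in this comparison, and without the 4 DM2 libraries with the most reads outside genes Snhg6 was (edgeR adjusted p = 0.0495). The remaining 4 hosts had log2 fold changes between 0.03, for Snhg12, and 0.28, for Snhg5. For the MK5-depleted line edgeR also called 0 of the 7 hosts, against 8.45% of all genes. An unadjusted edgeR p under 0.05 was found for 0 hosts and for 3331 of all genes. DESeq2 and limma called 0 hosts. The largest difference was that of Snhg3, at 8.75, 12.5 and 15.1 CPM (0.32, edgeR adjusted p = 0.489), and the lowest that of Snhg12, at 19.3, 21.8 and 23.7 CPM (-0.14). No host was free of overlap with control there, where 16.5% of all genes lay above it without overlap. A value that misses the threshold does not show that levels were equal.

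At DM2 all 7 hosts were higher in the ERK3-depleted line than in control, against 55.8% of all genes called and 28% called higher. All 7 were also higher in the MK5-depleted line, against 45.1% of all genes called and 22.2% called higher. Both comparisons use the same 3 control DM2 libraries. Every host was free of overlap with control in both, where 29.6% and 27.7% of all genes lay above control without overlap. The median log2 fold change over the 7 hosts was 1.12 for the ERK3-depleted and 0.94 for the MK5-depleted line, beside 0.01 and 0.00 over all genes tested.

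Among the C/D hosts, Gas5 was at 208, 242 and 155 CPM in the ERK3-depleted line at DM2, against 91.1 to 96.4 CPM in control DM2. This is a rise of 1.11 ± 0.14 on the log2 scale, 2.16-fold (edgeR adjusted p = 8.14e-06). Gas5 of the MK5-depleted line was at 158, 168 and 129.6 CPM, 1.63-fold above control (0.70 ± 0.14, edgeR adjusted p = 0.000593). Replicate 3 of each line was its lowest for Gas5, and both of these libraries stood above every control library of either medium. Snhg1 was at 52.5, 47.3 and 46.8 CPM in the ERK3-depleted and at 51.6, 49.5 and 43.1 CPM in the MK5-depleted line. Its rises were the closest to each other of the 7, 1.64-fold (0.72 ± 0.10, edgeR adjusted p = 2.26e-05) and 1.62-fold (0.69 ± 0.10, adjusted p = 7.62e-05).

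Snhg5, which had fallen in the control line, was at 65.7, 61.5 and 60.2 CPM in the ERK3-depleted line and at 63.7, 55.6 and 53.4 CPM in the MK5-depleted line at DM2. The libraries of a group lay close together, and the gene was 2.07-fold (1.05 ± 0.11, edgeR adjusted p = 3.98e-06) and 1.91-fold (0.94 ± 0.11, adjusted p = 1.25e-05) above control. Snhg6, the host of Snord87, was at 39.2, 40.6 and 34.5 CPM and at 33.6, 29.6 and 25.5 CPM, where control DM2 reached at most 18.7 CPM. It was 2.18-fold (1.12 ± 0.12, edgeR adjusted p = 3.98e-06) and 1.69-fold (0.76 ± 0.12, adjusted p = 0.000107) higher.

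In this fit the H/ACA hosts Snhg3 and Snhg8 had the largest differences, but for Snhg8 the ranking was not firm. In the MK5-depleted line its value of 0.99 ± 0.17 was close to 0.94 for Snhg5 and Snhg12. In the ERK3-depleted line it stood below Snhg5 without the 4 DM2 libraries with the most reads outside genes. The same held there with that share as a covariate, as given below. Snhg3, whose Snora73 RNAs belong to the kind that act in ribosomal RNA processing, was at 19.9, 22.1 and 17.0 CPM in the ERK3-depleted line and at 18.5, 16.7 and 8.95 CPM in the MK5-depleted line, against at most 5.07 CPM in control DM2. Replicate 3 of the MK5-depleted line was far below the others and still above control. Snhg3 was 4.09-fold (2.03 ± 0.26, edgeR adjusted p = 1.13e-05) and 3.06-fold (1.61 ± 0.26, adjusted p = 0.000182) above control. Snhg8 was at 67.7, 69.4 and 39.6 CPM and at 48.1, 44.1 and 33.7 CPM, with replicate 3 again the lowest in each line. The rises of Snhg8 were 2.79-fold (1.48 ± 0.17, edgeR adjusted p = 5.96e-06) and 1.99-fold (0.99 ± 0.17, adjusted p = 0.000278). Snhg12, host of both kinds, was at 62.8, 73.6 and 44.3 CPM and at 51.9, 52.2 and 42.5 CPM, against 24.5 to 26.5 CPM in control DM2. Snhg12 was 2.37-fold (1.24 ± 0.15, edgeR adjusted p = 6.09e-06) and 1.92-fold (0.94 ± 0.15, adjusted p = 0.000123) higher.

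**Figure D3:**
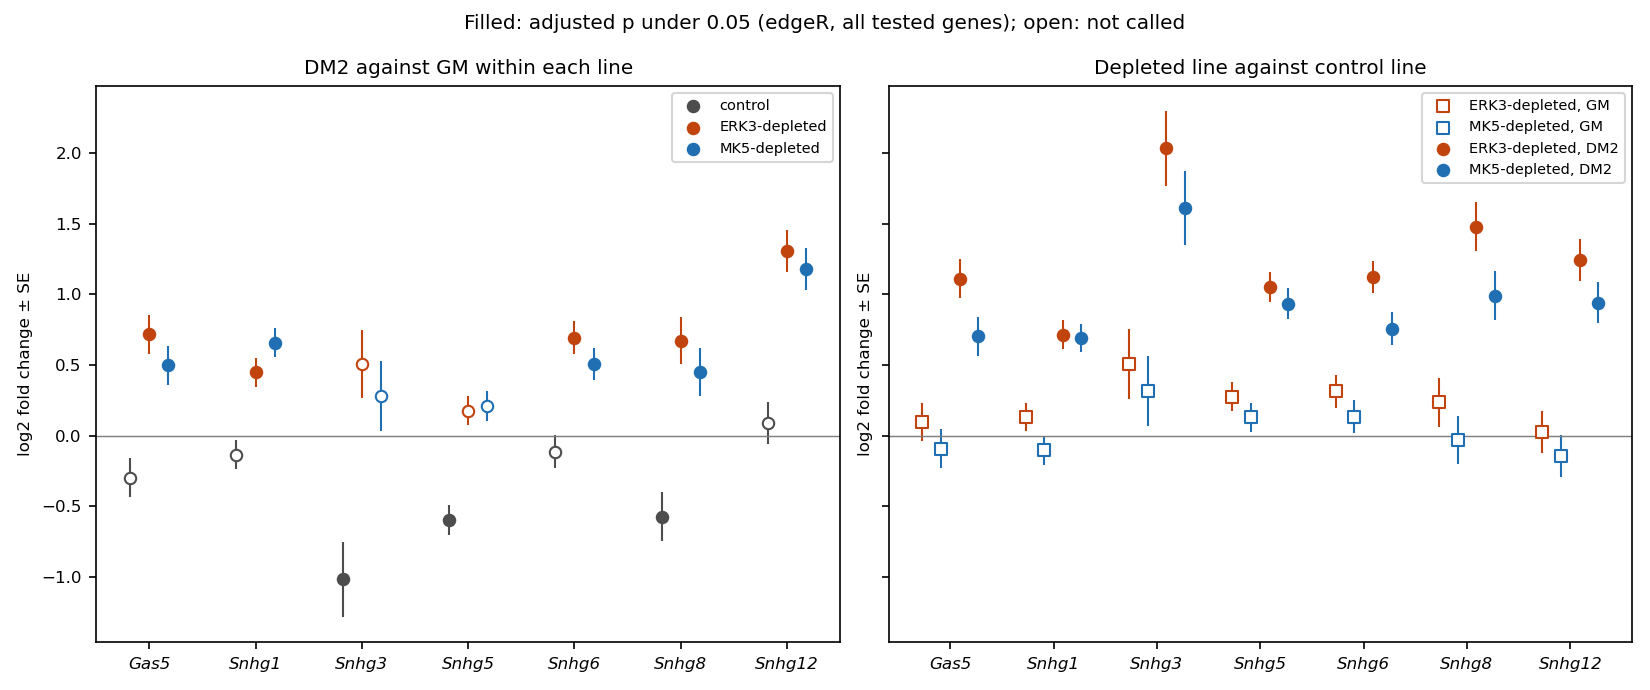
Log2 fold change of each host gene with its standard error (whiskers), for DM2 against GM within each line and for each depleted line against control in GM and at DM2, with filled points for an edgeR adjusted p under 0.05. In the comparisons at DM2 every host is filled and lies between 0.69 and 2.03, and in GM none is filled.

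From GM to DM2 most hosts rose in the depleted lines. In the ERK3-depleted line 5 of the 7 hosts rose from GM to DM2, against 55.1% of all genes called and 28.9% called higher. The MK5-depleted line also had 5 that rose, against 49.3% of all genes called and 24.6% called higher. The 5 were Gas5, Snhg1, Snhg6, Snhg8 and Snhg12 in each. On the unscaled TPM values limma called 3 hosts in each line, and with the percentage of reads lying outside genes added as a covariate edgeR called 2 hosts in the ERK3-depleted line, where 3720 of all genes were called against 7680 without it. Snhg12 had the largest rise in both lines, 2.48-fold in the ERK3-depleted (1.31 ± 0.15, edgeR adjusted p = 1.38e-06) and 2.26-fold in the MK5-depleted line (1.18 ± 0.15, adjusted p = 5.37e-06). Its GM libraries held 22.6, 26.9 and 23.3 CPM in the ERK3-depleted line, close to control in either medium. Gas5 rose by 0.72 ± 0.14 (edgeR adjusted p = 0.000263) and 0.50 ± 0.14 (adjusted p = 0.00577), Snhg6 by 0.69 ± 0.11 (adjusted p = 7.17e-05) and 0.51 ± 0.12 (adjusted p = 0.00147), and Snhg1 by 0.45 ± 0.10 (adjusted p = 0.00120) and 0.66 ± 0.10 (adjusted p = 4.67e-05). Snhg8 rose by 0.67 ± 0.17 (edgeR adjusted p = 0.00262) in the ERK3-depleted line. Its rise of 0.45 ± 0.17 (adjusted p = 0.0355) in the MK5-depleted line was lost when any 1 of 4 libraries was left out: GM replicate 1 (adjusted p = 0.129) or 3 (0.0934), or DM2 replicate 1 (0.134) or 2 (0.0820).

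Snhg3 and Snhg5 did not pass the test between media in either depleted line. The ERK3-depleted values were 0.51 ± 0.24 for Snhg3 (edgeR adjusted p = 0.0835) and 0.18 ± 0.11 for Snhg5 (adjusted p = 0.160), and the MK5-depleted values 0.28 (adjusted p = 0.357) and 0.21 (adjusted p = 0.108). In the ERK3-depleted line all 7 hosts were higher at DM2 without overlap, against 27.9% of all genes. In the MK5-depleted line Gas5, Snhg1, Snhg6 and Snhg12 were, against 28.8% of all genes. Without the 4 DM2 libraries with the most reads outside genes, which leaves 1 DM2 library in each depleted line, 3 hosts rose in the ERK3-depleted line, Snhg1, Snhg6 and Snhg12. Only Snhg1 and Snhg12, 2 hosts, rose in the MK5-depleted line. Of all 14413 genes tested in that fit, 4721 were called in the ERK3-depleted line, 2497 of them higher, and 5459 in the MK5-depleted line, 2743 of them higher. Snhg12 rose by 0.87 and 1.0 there (edgeR adjusted p = 0.000230 and 5.36e-05), whereas Snhg3 of the MK5-depleted line turned to -0.41 (adjusted p = 0.329). In those fits the lone library is assumed to vary like those of the other groups.

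The difference between the DM2 response of a depleted line and that of control was tested as an interaction. It was positive and passed the test for all 7 hosts in the ERK3-depleted line, against 28.6% of all genes called and 14.6% called higher. The same held for all 7 in the MK5-depleted line, against 18% of all genes called and 8.54% called higher. In the ERK3-depleted line the difference ran from 0.58 ± 0.14 for Snhg1 (edgeR adjusted p = 0.00837) to 1.52 ± 0.36 for Snhg3 (adjusted p = 0.00719). In the MK5-depleted line it ran from 0.62 ± 0.16 for Snhg6 (edgeR adjusted p = 0.0196) to 1.30 ± 0.36 for Snhg3 (adjusted p = 0.0240). The medians over the hosts were 1.01 and 0.81, beside 0.02 and 0.01 over all genes. For Snhg12 the difference came from a rise in the depleted lines with no called change in control (1.22 and 1.09). For Snhg3 and Snhg5 it came with a called fall in control and no called change in the depleted lines, and for Snhg8 with both. Without the 4 DM2 libraries richest in reads outside genes, 5 hosts passed in each line, and of all 14413 genes 641 were called in the ERK3-depleted line (277 higher) and 1723 in the MK5-depleted line (725 higher). Snhg1 (0.50, edgeR adjusted p = 0.0952) and Snhg3 (1.30, adjusted p = 0.0626) did not pass in the ERK3-depleted line, nor did Snhg3 (0.59, adjusted p = 0.338) and Snhg6 (0.42, adjusted p = 0.136) in the MK5-depleted line. With the percentage of reads lying outside genes added as a covariate, the ERK3-depleted difference was called for 0 of the 7 hosts (edgeR adjusted p from 0.0505 for Snhg12 to 0.202 for Snhg3). Only 200 of all genes tested were called under that covariate, against 3983 without it. The MK5-depleted difference for Snhg3 lost its call when any 1 of 4 libraries was left out, with adjusted p up to 0.0699, and that for Snhg6 when GM replicate 1 or DM2 replicate 1 of that line was left out (0.0560 and 0.0561).

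The depleted lines were also compared with each other. In GM the hosts were all slightly lower in the MK5-depleted line, with log2 fold changes from -0.27 to -0.15. EdgeR called 0 of 7, against 0% of all genes, and DESeq2 and limma called 0 hosts. An unadjusted edgeR p under 0.05 was found for 1 host and for 1167 of all genes. At DM2 edgeR again called 0 of 7, against 0% of all genes, with 3 hosts at an unadjusted p under 0.05 and 0 called by DESeq2 or limma. Over all genes, 2741 had an unadjusted p under 0.05 there and DESeq2 called 193. The host values at DM2 were -0.41 ± 0.14 for Gas5, -0.02 ± 0.10 for Snhg1, -0.42 ± 0.24 for Snhg3, -0.12 ± 0.11 for Snhg5, -0.37 ± 0.11 for Snhg6, -0.49 ± 0.17 for Snhg8 and -0.30 ± 0.14 for Snhg12, with edgeR adjusted p from 0.142 to 0.910. Snhg6 was the only host without overlap between the lines, where 5.72% of all genes were lower without overlap. This comparison rested on 1 library. ERK3-depleted DM2 replicate 3 was the lowest of its group in CPM for all 7 hosts. Without it 4 hosts were called lower in the MK5-depleted line: Gas5 (-0.54, edgeR adjusted p = 0.00330), Snhg6 (-0.41, adjusted p = 0.0172), Snhg8 (-0.69, adjusted p = 0.00123) and Snhg12 (-0.46, adjusted p = 0.00909). Of all 14268 genes tested in that fit 3597 were called, 1740 of them lower, against 0 with that library. EdgeR called 0 hosts, and 3 of 14413 genes, without the 4 DM2 libraries with the most reads outside genes; 1435 genes then had an unadjusted p under 0.05.

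The summed level of the 7 hosts was 222 ± 7.59 CPM (SD, n = 3) in control DM2, 490 ± 82.8 CPM in ERK3-depleted DM2 and 393 ± 48.7 CPM in MK5-depleted DM2, and 276 ± 22 CPM in control GM. Within the ERK3-depleted line at DM2 the summed CPM followed the order of the reads outside genes, with 397 CPM at 3.79%, 515 CPM at 5.55% and 557 CPM at 7.73%. ERK3-depleted replicate 2, at 7.73%, had the highest CPM of Gas5, Snhg3, Snhg6, Snhg8 and Snhg12 of all 18 libraries. On the deposited TPM values this held only for Gas5 and Snhg12. The highest TPM of that line at DM2 was in replicate 3 for Snhg1, Snhg3, Snhg5 and Snhg6, and in replicate 1 for Snhg8. Reads that mapped to several places made up 14.5% to 14.8% of control DM2, 17.6% to 21.6% of ERK3-depleted DM2 and 16.5% to 19.1% of MK5-depleted DM2, and 17.1% to 17.8% of control GM. MK5-depleted DM2 replicate 3 had 2.84% of reads outside genes, inside the range of control DM2. Its Snhg12 level of 42.5 CPM was above the 26.9 CPM that no GM or control library exceeded. Its Snhg3 level of 8.95 CPM was above the control DM2 libraries and within the range of GM. Why the share of reads outside genes differed was not tested.

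**Figure D4:**
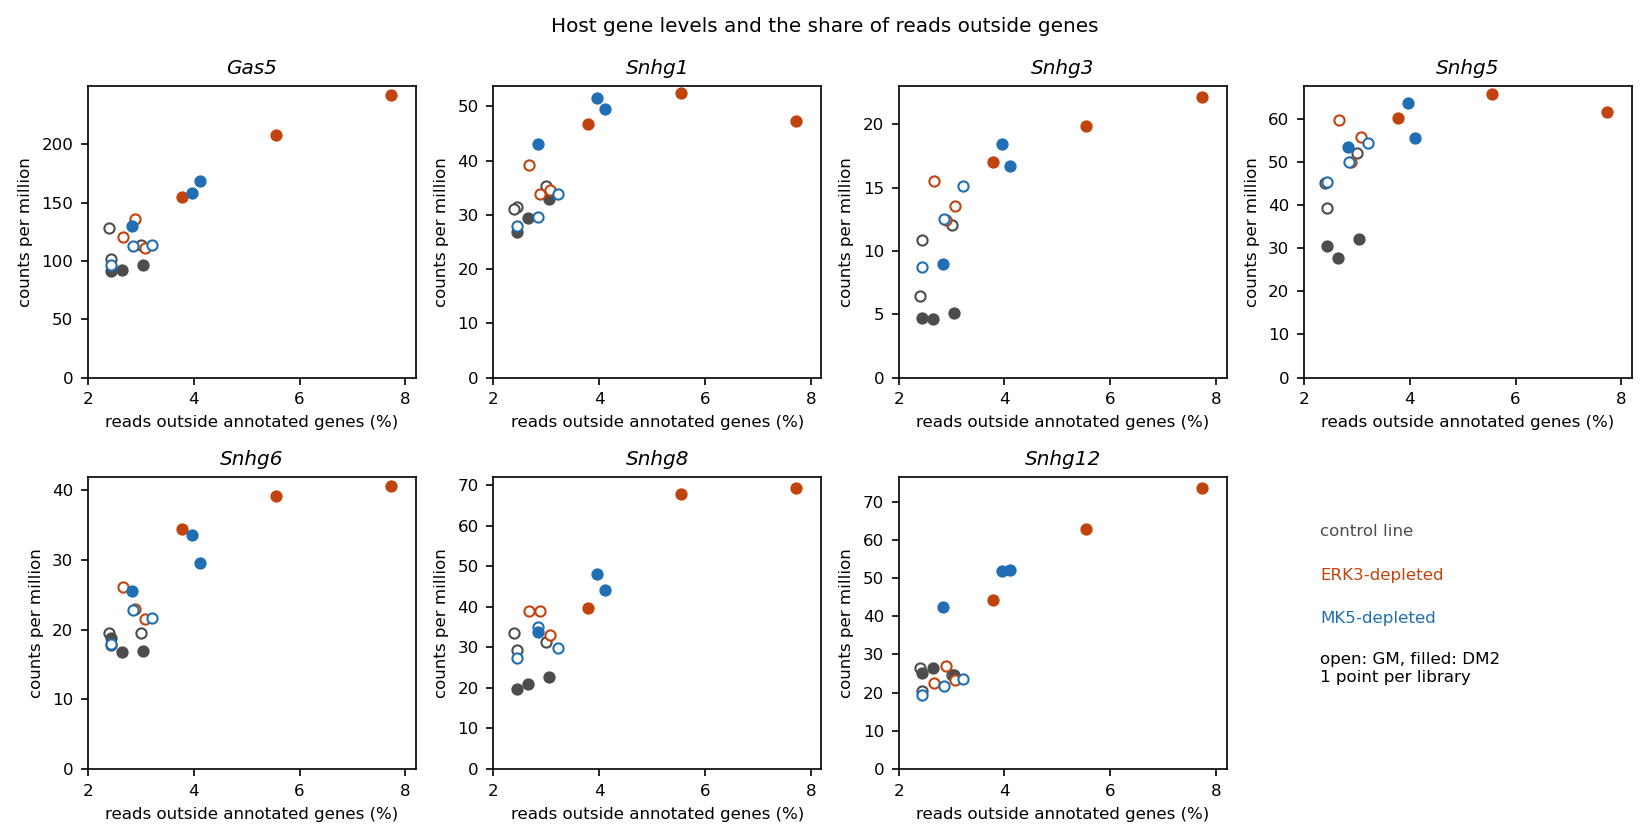
Level of each host gene in CPM (vertical axis, 1 panel per gene) against the share of a library's reads outside genes in percent (horizontal axis). This share holds reads assigned to no annotated exon and can include reads in introns. Each of the 18 libraries has a point, coloured by line, open for GM and filled for DM2. The ERK3-depleted DM2 libraries lie at 3.79% to 7.73%, beyond every control library, and MK5-depleted DM2 replicate 3 lies at 2.84%, among the controls.

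The differences from control at DM2 were recomputed in ways that bear on this. Leaving out the 4 DM2 libraries with the most reads outside genes leaves 1 DM2 library in each depleted line. That of the ERK3-depleted line, at 3.79%, still exceeds every control library in this share. All 7 hosts were still above control in the ERK3-depleted line. The log2 fold changes were 0.73 for Gas5, 0.65 for Snhg1, 1.82 for Snhg3, 0.99 for Snhg5, 0.97 for Snhg6, 0.90 for Snhg8 and 0.80 for Snhg12. In the MK5-depleted line all 7 were above control as well, at 0.49, 0.55, 0.91, 0.84, 0.56, 0.69 and 0.75 in the same order. Each of these values rests on 1 depleted library. With the share as a covariate the ERK3-depleted values were 0.59 for Gas5, 0.59 for Snhg1, 1.44 for Snhg3, 0.93 for Snhg5, 0.90 for Snhg6, 0.85 for Snhg8 and 0.66 for Snhg12, all called. The shares of ERK3-depleted and control libraries at DM2 do not overlap, so the covariate and the group can be told apart only in part. With the length and GC offsets all 7 were called in both lines, and the value for Snhg3 fell to 1.55 and 1.24. The calls under the covariate and the offsets are given without the share of all genes called there. Alone they do not set the hosts apart from other genes.

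The scale also mattered. The median of all genes was -0.46 in the ERK3-depleted and -0.29 in the MK5-depleted comparison at DM2 on the deposited TPM values, which are not rescaled between libraries, and 13.4% and 15.2% of the called genes were then higher, against 50.2% and 49.3% in the counts. On that scale the hosts were all positive. Snhg1 of the ERK3-depleted line no longer passed (0.12 on the log2(TPM + 1) scale, limma adjusted p = 0.344), and relative to the median of all genes it stood at 0.58. The other 6 passed, from 0.26 for Snhg6 to 1.25 for Snhg3. In the MK5-depleted line all 7 passed, from 0.25 for Snhg6 to 0.97 for Snhg3. After scaling the TPM values between libraries all 7 were called in both, given without the share of all genes called.

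Markers of cycling and of differentiation also differed between these libraries. The summed level of the cycling markers Mki67, Top2a, Ccnb1 and Cdk1, all 4 measured, was 312 to 345 CPM in control DM2, 433 to 632 CPM in ERK3-depleted DM2, 589 to 763 CPM in MK5-depleted DM2 and 558 to 848 CPM in control GM. In GM this sum was 891 to 899 CPM in the ERK3-depleted and 969 to 1103 CPM in the MK5-depleted line. The summed muscle markers in GM were 1623 to 1853 CPM and 1510 to 1793 CPM in these lines. Both sums lay above control GM without overlap. Among the muscle markers Actc1, the cardiac alpha actin expressed in young myotubes, was at 457 to 605 CPM in control DM2, 167 to 377 CPM in ERK3-depleted DM2 and 281 to 534 CPM in MK5-depleted DM2. Des, the muscle intermediate filament protein desmin, was higher in the depleted lines, at 1265 to 1452 CPM, 2091 to 2508 CPM and 1920.2 to 2339 CPM in the same order. In that order the mean levels were 593, 375 and 476 CPM for Myog, 415, 269 and 347 CPM for Myh3, and 68.8, 43.7 and 56.1 CPM for Ckm. Myod1 was at 201, 184 and 191 CPM, Myf5 at 23.1, 17.1 and 21.5 CPM, and Cdh15 at 365, 406 and 441 CPM. The summed muscle markers, given above, overlapped between the groups at DM2. Des had the highest level of these markers in every group and so weighs most in their sum. The part of these differences in the host levels was not tested.

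How reads were counted bears on some hosts. Gas5 lies opposite to Zbtb37, Snhg6 opposite to Mcmdc2, and Snhg3 lies within Rcc1 on the same strand and opposite to Gm17300. The counts were taken by strand, and at most 6.59% of a host's stranded reads, in Snhg8, were on the other strand. Rcc1, which encodes the exchange factor for the GTPase Ran, did not pass the test at DM2 (0.15, edgeR adjusted p = 0.310 in the ERK3-depleted and 0.27, adjusted p = 0.0835 in the MK5-depleted line), nor did Zbtb37 (0.12, adjusted p = 0.341 and -0.07, adjusted p = 0.627). The unstranded counts list Snhg3 at 0 in all libraries, so it was not tested there. The estimated counts of RSEM, which divides reads among transcripts, were 0.431 to 0.504 times the gene counts for Gas5 and 0.698 to 0.798 times for Snhg6, and between 0.882 and 1.18 times for the other 5 hosts. With RSEM values the rises at DM2 in the ERK3-depleted line were 1.23 for Gas5 and 1.16 for Snhg6. All 7 hosts were called in both lines, given without the share of all genes called.

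The snoRNAs themselves carry no poly-A tail, and most of their entries had no read. Gas5, Snhg1, Snhg5 and Snhg8 also have annotated transcripts that retain introns (20, 14, 3 and 1), and Snhg3, Snhg6 and Snhg12 have 0. Reads shared between genes are set aside as ambiguous, so an empty entry does not show that a snoRNA was absent. Why entries were empty was not tested. Of the 29 snoRNA entries inside the hosts only Snora73b, Snora73a and Snord87 had any read. Snora73b, within Snhg3, had 14 to 70 reads per library and passed the filter. It was at 0.686 to 1.04 CPM in control DM2, 2.24 to 3.46 CPM in ERK3-depleted DM2 and 2.16 to 3.22 CPM in MK5-depleted DM2, and was higher than control in both (1.72 ± 0.38, edgeR adjusted p = 0.00101, and 1.6 ± 0.38, adjusted p = 0.00265). Snora73b without the 4 DM2 libraries with the most reads outside genes missed the threshold in the ERK3-depleted line (1.30, edgeR adjusted p = 0.0999) and passed in the MK5-depleted line (1.81, adjusted p = 0.0161). Like its host it fell in the control line (-1.08 ± 0.39, edgeR adjusted p = 0.0303). Reads from an unspliced Snhg3 or Rcc1 transcript and from the trimmed snoRNA cannot be told apart in these counts. Snora73a had 1 to 7 reads and Snord87 0 to 8, too few to compare.

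The levels of the hosts were compared with each other across the 18 libraries by Pearson's r of log2 CPM. The libraries share lines and media, so these values only describe the pattern over the groups. Gas5 ran closest to Snhg8 (r = 0.955) and Snhg6 (0.936), and Snhg3 closest to Snhg5 (0.925). The loosest pairs were Snhg5 with Snhg12 (0.533) and Snhg3 with Snhg12 (0.550). Over the 14 libraries other than the 4 with the most reads outside genes, r was 0.879 for Gas5 with Snhg8, 0.855 for Gas5 with Snhg6, 0.907 for Snhg3 with Snhg5, 0.240 for Snhg5 with Snhg12 and 0.0786 for Snhg3 with Snhg12. Snhg3 and Snhg5 fell in control and did not pass the test within the depleted lines, whereas Snhg12 had the largest rise there. Among genes with a mean of at least 5 CPM, those most like the mean pattern of the 7 hosts were Gm47283 (r = 0.973), 1810022K09Rik (0.973), Epb41l4aos (0.972), Ccnq (0.967) and Taf1d (0.964). Over the 14 libraries Gm47283, Epb41l4aos and Ccnq were still among the first 5, with 1810022K09Rik at place 7 and Taf1d at place 12.

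Genes related to the hosts were grouped in lists, and each list is described by its counts in the control line from GM to DM2 and in each depleted line against control at DM2. The shares of all genes to read these counts against are 45.6% called in the control line, and 55.8% and 45.1% called, 28% and 22.2% higher, in the ERK3-depleted and MK5-depleted lines at DM2. Without the 4 DM2 libraries with the most reads outside genes only medians are given, since 1 DM2 library is left in each depleted line. The median of all genes there was -0.01 in both lines. Of 16 other noncoding snoRNA host genes 8 were tested, and Snhg4, Snhg7, Snhg10, Snhg11, Snhg16, Dancr, Rian and Meg3 did not pass the filter. In the control line 2 of the 8 rose and 4 fell (median -0.64), with Snhg15 at 0.64 (edgeR adjusted p = 0.000132) and Snhg20 at -1.20 (adjusted p = 0.0257). At DM2 7 of the 8 were higher in the ERK3-depleted and 6 in the MK5-depleted line, and none was lower (medians 1.19 and 0.92). The medians were 0.87 and 0.90 without the 4 DM2 libraries with the most reads outside genes. Snhg20 led both, at 2.60 ± 0.40 (edgeR adjusted p = 5.08e-05) and 1.93 (adjusted p = 0.00117). Epb41l4aos followed at 1.92 (adjusted p = 5.96e-06) in the ERK3-depleted line and Snhg9 at 1.51 (adjusted p = 0.00322) in the MK5-depleted line.

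Protein-coding snoRNA host genes outside the ribosome moved in both directions. In the control line 3 of 22 rose and 2 fell (median 0.05), led by Wdr43, a nucleolar protein (0.53, edgeR adjusted p = 0.000726), and Rbmx, an RNA-binding protein (-0.54, adjusted p = 0.00133). At DM2 7 of 22 were higher and 8 lower in the ERK3-depleted line (median -0.09), and 5 higher and 2 lower in the MK5-depleted line (median -0.04). In all 15 and 7 of the 22 were called, a share above that of all genes in the ERK3-depleted and below it in the MK5-depleted line. Without the 4 libraries the medians turned to 0.07 in both lines. The translation initiation helicase Eif4a1 was at 1.07 and 0.79 (edgeR adjusted p = 3.98e-06 and 4.87e-05), while its paralog Eif4a2 was at -0.95 and -0.68 (adjusted p = 7.59e-06 and 0.000226). Cnot1, the scaffold of the CCR4-NOT deadenylase, was also lower (-0.82 and -0.58).

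Ribosomal protein genes (5 prime TOP) were described because their mRNAs carry a TOP start, as several snoRNA hosts are known to. In the control line 1 of 76 rose and 49 fell (median -0.38), with Rpsa at -0.84 (edgeR adjusted p = 0.000377) and Rpl13a at -0.75 (adjusted p = 0.000119). At DM2 69 of 76 were higher in the ERK3-depleted and 65 in the MK5-depleted line, none lower (medians 0.90 and 0.68). The medians were 0.51 and 0.60 without the 4 DM2 libraries with the most reads outside genes. Rpl13, a protein of the large ribosomal subunit, was at 1.84 and 1.28. Many of these genes have near-identical pseudogenes that can share their reads, so single values are uncertain. Among the other 5 prime TOP genes, mostly translation factors, 0 of 18 rose and 11 fell in the control line (median -0.33; Nap1l1 -0.57, Rack1 -0.40). At DM2 12 were higher and 3 lower in the ERK3-depleted line and 10 higher and 0 lower in the MK5-depleted line (medians 0.35 and 0.32). Without the 4 libraries the medians were 0.21 and 0.28. Eef1g, a subunit of an elongation factor, was at 0.79 and 0.65, and the elongation factors Eef2 and Eef1a1 were at -0.32 and -0.29 in the ERK3-depleted line. On unscaled TPM the medians of the other 5 prime TOP genes were negative, at -0.22 and -0.02.

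**Figure D5:**
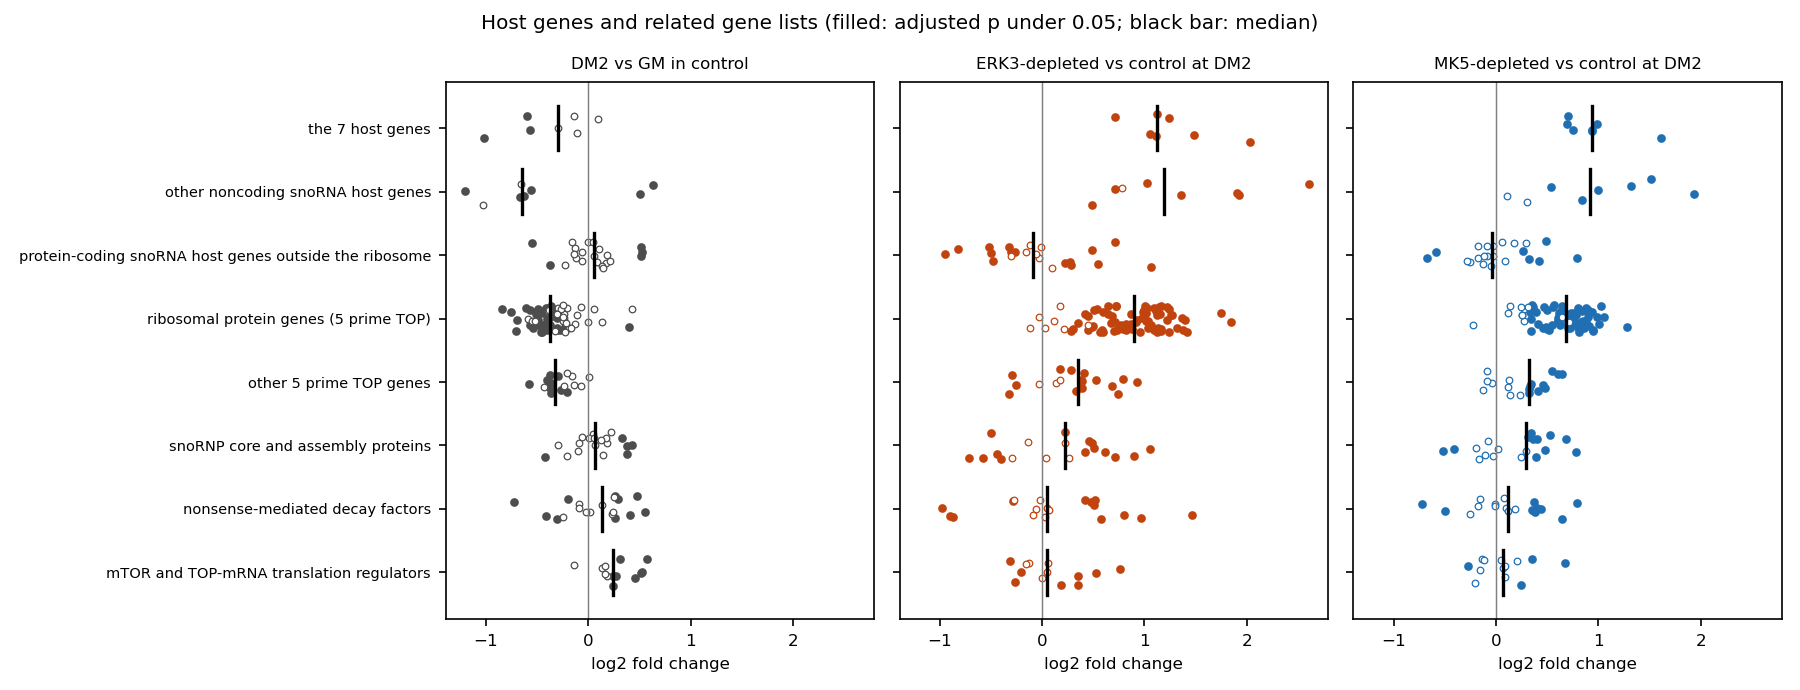
Log2 fold changes of the genes in each list (points, 1 per gene, filled for an edgeR adjusted p under 0.05) with the list median (bar), for DM2 against GM in the control line and for each depleted line against control at DM2. The 7 hosts, the other noncoding hosts and the ribosomal protein genes have medians of 0.68 to 1.19 in the depleted lines and below 0 in the control line.

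Proteins that act on the products of the hosts were less uniform. Of 19 snoRNP core and assembly proteins 4 rose and 1 fell in the control line (median 0.06), with Nolc1, a nucleolar chaperone of snoRNPs, at 0.42 (edgeR adjusted p = 0.000598). At DM2 9 were higher and 5 lower in the ERK3-depleted and 9 higher and 2 lower in the MK5-depleted line (medians 0.23 and 0.30). Without the 4 DM2 libraries with the most reads outside genes the medians were 0.14 and 0.23. Nhp2, a core protein of H/ACA particles, was at 1.05 and 0.78 (edgeR adjusted p = 6.57e-06 and 0.000143), and the assembly factor Rpap3 at -0.71 and -0.41. In GM 6 of the 19 were higher and 0 lower than control in each depleted line (medians 0.33 and 0.33), where no host was called. Of all genes, 6.79% were called in GM in the ERK3-depleted and 8.45% in the MK5-depleted line. Of 19 nonsense-mediated decay factors 6 rose and 4 fell in the control line (median 0.14). At DM2 8 were higher and 4 lower in the ERK3-depleted and 8 higher and 2 lower in the MK5-depleted line (medians 0.05 and 0.12). Without the 4 libraries the medians were 0.18 and 0.20. The shares of called decay factors are near those over all genes. Upf3b and Upf3a, which bridge exon junctions and the decay machinery, were at 1.46 and 0.97 in the ERK3-depleted and 0.79 and 0.65 in the MK5-depleted line. Gspt1, the release factor eRF3a, was at -0.98 and -0.72. On unscaled TPM the medians of the nonsense-mediated decay factors were -0.23 and -0.04. Of 13 mTOR and TOP-mRNA translation regulators 8 rose and 0 fell in the control line (median 0.25). Tsc1, an inhibitor of mTOR complex signalling, was at 0.58 and Eif4ebp1, an inhibitor of the cap-binding protein eIF4E, at 0.53. At DM2 5 were higher and 3 lower in the ERK3-depleted and 3 higher and 1 lower in the MK5-depleted line (medians 0.05 and 0.07). Without the 4 libraries the medians for these regulators were -0.02 and 0.13. Eif4ebp1 was at 0.76 and 0.68 (edgeR adjusted p = 1.94e-05 and 0.000123).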

How the data were processed

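The authors' counts per gene (STAR 2.5.1b on GRCm38, per the submitters' processing notes) are raw and summed to 17474562 to 23423050 per library in the column for the reverse strand, which held 92.8% to 95.3% of stranded counts and was used here. The deposited RSEM 1.2.28 tables give expected counts, rounded before testing, and TPM. Summary lines of the count files (reads unmapped, at several places, in no annotated exon or ambiguous, 21.7% to 35.8% of a library) stayed out of library sizes and tests. Of the 50600 identifiers 50376 matched GENCODE M21. EdgeR 4.0.16 (R 4.3.3) fitted 6 group means to all 18 libraries with TMM scaling and filterByExpr, leaving 13939 genes and 12 residual degrees of freedom. Each of 11 contrasts used the quasi-likelihood test with Benjamini-Hochberg adjustment over all tested genes, and called means an adjusted p under 0.05. Standard errors are the log2 fold change divided by the root of F. CPM values use TMM library sizes. Alternatives were DESeq2 1.42.0, limma 3.58.1 on log2(TPM + 1), other scalings, filters, strands and covariates, and leaving out libraries. Leaving out the 4 DM2 libraries with the most reads outside genes and scaling TPM by TMM were chosen after seeing the data. The main edgeR fit was tested on simulated counts with 200 changed genes, for DM2 against GM in control. It called 80.6% of the 2-fold and 51.5% of the 1.5-fold changes. The 7 genes and the gene lists were chosen with earlier results of these data known. All 7 are named in every comparison. From a list, up to 2 called genes with the largest rise and up to 2 with the largest fall were eligible. The most alike genes are the 5 with the highest r. Numbers in the titles pair libraries where same-numbered libraries deviate together (r above 0.1 in every pair), which held for ERK3-depleted against control in both media, DM2 against GM in the ERK3-depleted line, MK5-depleted against control in GM and MK5-depleted against ERK3-depleted at DM2. That correlation comes from the data, since no label names a shared batch.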

Additional observations from a re-analysis of the deposited data

Results flagged for a closer look

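The response of every host gene to differentiation medium differed between the depleted and the control lines, by the interaction term of the edgeR quasi-likelihood model. For the ERK3-depleted line the difference of the log2 fold changes (DM2 against GM, depleted minus control) was 1.01 for Gas5 (adjusted p = 0.00324), 0.58 for Snhg1 (0.00837), 1.52 for Snhg3 (0.00719), 0.77 for Snhg5 (0.00353), 0.81 for Snhg6 (0.00389), 1.24 for Snhg8 (0.00360) and 1.22 for Snhg12 (0.00243). For the MK5-depleted line the edgeR difference was 0.80 for Gas5 (adjusted p = 0.0138), 0.80 for Snhg1 (0.00472), 1.30 for Snhg3 (0.0240), 0.81 for Snhg5 (0.00544), 0.62 for Snhg6 (0.0196), 1.02 for Snhg8 (0.0130) and 1.09 for Snhg12 (0.00633). The libraries of the ERK3-depleted line at DM2 also differed from control in reads outside genes (3.79% to 7.73% against 2.44% to 3.05%). With that share as a covariate the ERK3-depleted differences were 0.46 for Snhg1 to 0.97 for Snhg3 and none passed, while all 7 of the MK5-depleted line passed (0.57 for Snhg6 to 1.14 for Snhg3).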

How the results depend on the processing

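Of 77 differences (7 hosts in 11 contrasts) 41 were called, and none of these changed sign under any alternative run. Counts of called hosts moved as follows. Against control at DM2 they went from 7 to 6 for the ERK3-depleted line on the 3 TPM settings and for the MK5-depleted line on TPM without a filter, where Snhg6 missed the threshold (0.25, limma adjusted p = 0.0616), and to 6 in both lines with unstranded counts, which hold no value for Snhg3. With limma on log2(TPM + 1), on log2(TPM + 0.1) and without a filter on low TPM, hosts called from GM to DM2 went from 5 to 3 in each depleted line, and hosts with a called difference of response went from 7 to 4, 4 and 3 in the ERK3-depleted and to 3, 3 and 2 in the MK5-depleted line. With the percentage of reads lying outside genes added as a covariate, 2 hosts were called from GM to DM2 in the ERK3-depleted line and 0 in its difference of response. Without the 4 DM2 libraries highest in such reads, 3 and 2 hosts were called from GM to DM2 in the ERK3-depleted and MK5-depleted lines, and 1 for ERK3-depleted against control in GM. Without a filter on counts 1 was called there and 2 for MK5-depleted against ERK3-depleted at DM2, where all genes called went from 0 to 1331.

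Leaving out each library in turn gave 3 to 4 called hosts from GM to DM2 in the control, 5 to 6 in the ERK3-depleted and 4 to 5 in the MK5-depleted line. Against control it gave 7 in both lines at DM2 and 0 in both in GM. Between the depleted lines it gave 0 in GM and 0 to 4 at DM2, and for the differences of response 7 (ERK3-depleted) and 5 to 7 (MK5-depleted).

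The sign changed only for values that were not called. On the 3 TPM settings these were, from GM to DM2 in control, Snhg1 (0.036, 0.036, 0.036) and Snhg6 (0.032, 0.032, 0.032), Snhg5 in the ERK3-depleted line (-0.14, -0.14, -0.14), Gas5 (-0.062, -0.062, -0.062) and Snhg12 (-0.0045, -0.0045, -0.0045) for ERK3-depleted against control in GM, and Snhg1 (0.18, 0.19, 0.18) and Snhg5 (0.071, 0.072, 0.071) for MK5-depleted against ERK3-depleted at DM2. With length and GC offsets, without and with the replicate block, Snhg1 (0.024, 0.024) and Snhg6 (0.24, 0.24) turned in control, Snhg12 (-0.067, -0.066) for ERK3-depleted against control in GM, and Snhg1 (0.056, 0.056) between the depleted lines at DM2. Under the covariate these were Snhg3 from GM to DM2 in the ERK3-depleted line (-0.057), Snhg12 for ERK3-depleted against control in GM (-0.023) and Snhg1 (0.064) and Snhg12 (0.10) between the depleted lines at DM2. Snhg3 turned in the MK5-depleted line without the 4 libraries (-0.41), Snhg8 with RSEM counts for MK5-depleted against control in GM (0.0081), and Snhg1 between the depleted lines at DM2 without a filter (0.0018) and with TMM-scaled TPM (0.013). Over single left-out libraries Snhg12 ranged from -0.0011 to 0.18 in control, -0.075 to 0.10 for ERK3-depleted against control in GM, Snhg8 from -0.13 to 0.047 for MK5-depleted against control in GM and Snhg1 from -0.063 to 0.053 between the depleted lines at DM2. The cause was not tested.

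The replicate number as a block across the model changed 1 host count, from 3 to 4 for DM2 against GM in control, where Gas5 passed (edgeR adjusted p = 0.0381) and the numbers did not pair the libraries. Length and GC offsets with the replicate block gave 2 called hosts for MK5-depleted against ERK3-depleted at DM2. Over all genes the block moved calls from 946 to 1905 and from 1178 to 2045 for the depleted lines against control in GM, and from 0 to 368 between the depleted lines at DM2. Unstranded counts gave no value for Snhg3. Depth limits Snhg3 most, which had 98 to 357 reads per library.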
